A study of Mus musculus with 4 samples.

Results

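Membrane transporters for sugars, monocarboxylates, bile acids, sulfate and organic ions were compared in mouse cardiac fibroblasts given vehicle or TGFbeta. Members were all gene symbols of the Slc2a, Slc5a, Slc10a, Slc13a, Slc16a and Slc22a families that end in a plain number, and the Slco symbols of subfamily letters a to c, without Slc2a1, Slc16a1 and Slc16a3. This name rule used no measured value, but it was chosen with earlier results of these data known. It gave 85 genes of 33641. Of these, 40 had a mean level of at least 1 TPM (a level corrected for transcript length and scaled to the same total in every library) and were tested, and 45 were not. Listed at 0 in every library were 9 of the 45.

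These proteins move small polar molecules across membranes. GLUT proteins (Slc2a) let sugars pass down their gradient, while Slc5a proteins couple sugars, inositol, vitamins or lactate to sodium. Slc16a proteins carry lactate, ketone bodies or aromatic amino acids, and Slc10a and Slc13a proteins include sodium-coupled carriers of bile acids, steroid sulfates, inorganic sulfate and citrate. Slc22a and Slco proteins take up organic cations, carnitine, prostaglandins, hormones and drugs. Heart tissue is known for its use of lactate, fatty acids and carnitine, and fibroblasts for exporting lactate.

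All 4 libraries came from wild-type C57BL/6J mice aged 12 weeks: 2 were vehicle controls and 2 received TGFbeta at 10 ng/ml, a growth factor that drives fibroblasts toward myofibroblasts. All cells, controls included, had taken up 4-thiouridine at 20 and 4 h before crosslinking by light of 368 nm. The design text describes RNA recovered on the RNA-binding protein HuR, the labels total RNA, and which of these the libraries hold is not settled, so values are given as levels only. Nothing in the labels tells whether replicates are distinct animals or cultures, so p-values measure only the spread between these libraries. TPM keeps no read number, so depth is unknown. Between 20945 and 21671 genes, and 69 to 74 members, were above 0 in a library. In bulk RNA, fewer cells of a type and less RNA per cell cannot be told apart.

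Of the 40 tested transporters, 2 fell with TGFbeta, Slc10a6 and Slc10a7, 1 rose, Slc22a23, and 37 did not pass the test. The test was limma on log2(TPM + 1) with an adjusted p under 0.05 over all 15815 tested genes. The share of members called was 7.5%, against 5.92% of all tested genes. Called lower were 5% of members and 4.38% of all genes, and called higher 2.5% and 1.54%, so each share lies near its background. Of 196 other tested solute carrier genes, 5.61% were called. At an unadjusted p under 0.05, 14 members were lower and 2 higher, together 40%, against 24.5% of all tested genes. Both TGFbeta libraries lay below both vehicle libraries for 20 members (50%, against 39.8% of all genes) and above them for 6 (15%, against 15.5%), and the groups overlapped for 14. A log2 change below 0 was found for 65% of members and 64.8% of all genes. The median log2 change of the members was -0.22 and that of all tested genes -0.13. Median scaling moved the all-gene median to 0.03 and quantile normalization to 0.02, and the members' median to -0.07 and -0.06, and the same 3 members were called under each.

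**Figure D1:**
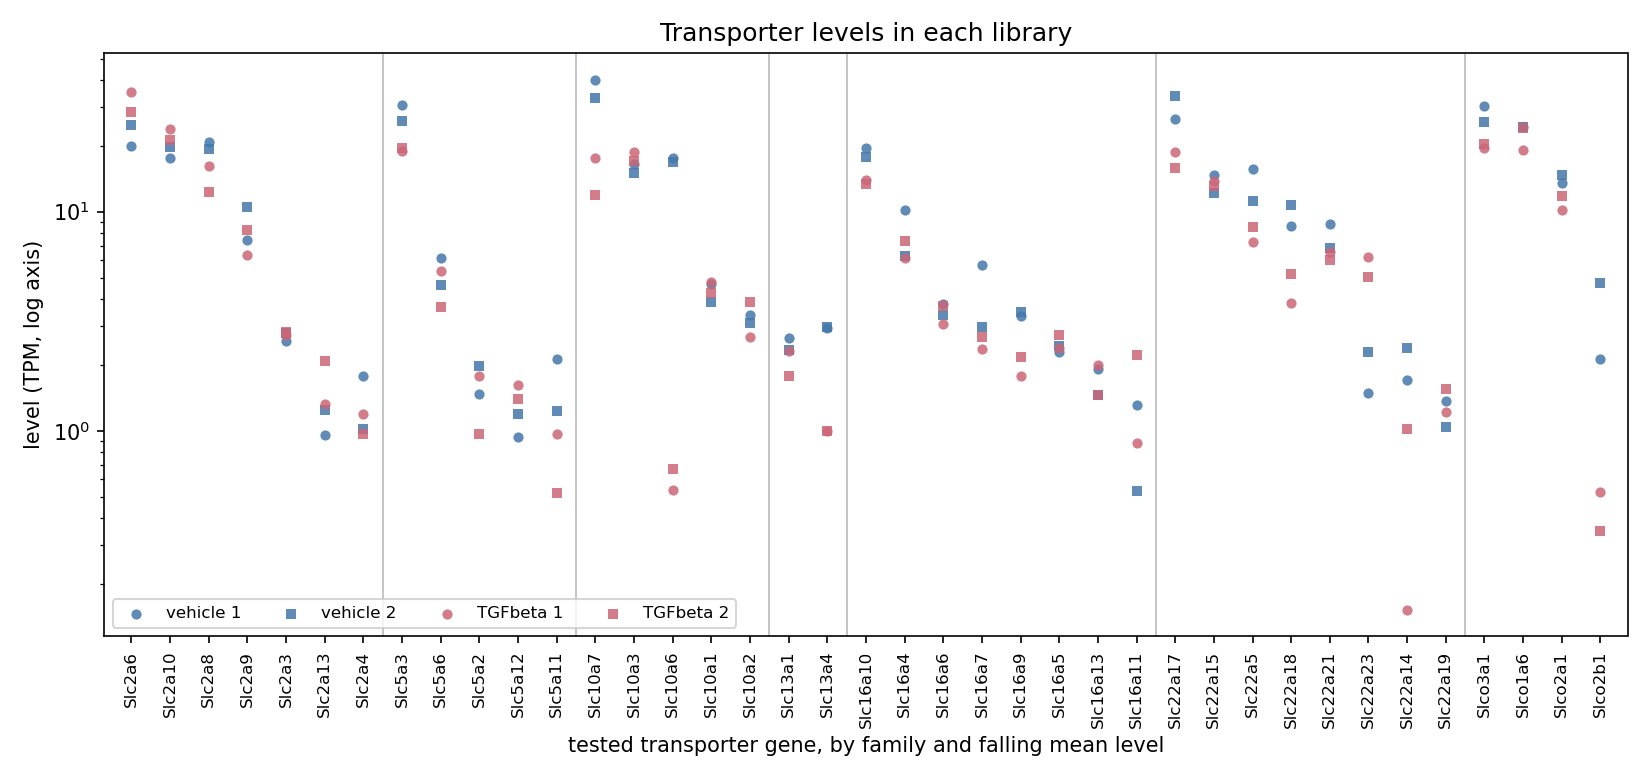
Level in TPM (log axis) of 39 tested transporters in each of the 4 libraries, grouped by family and ordered by mean level; blue marks vehicle, red TGFbeta, circles replicate 1 and squares replicate 2. Slc10a6, at 17.6 and 16.8 TPM with vehicle and 0.538 and 0.669 TPM with TGFbeta, shows the widest gap between treatments.

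Summed over all 85 members, vehicle levels were 476 and 445 TPM and TGFbeta levels 354 and 340 TPM. The groups did not overlap, and the TGFbeta mean was 0.754 of the vehicle mean. Slc10a7 made up 19.3% and Slc10a6 14.6% of the difference of 113 TPM. By family the ratio was lowest for Slc10a at 0.532 and Slc13a at 0.581. In Slc10a only Slc10a6 and Slc10a7 were lower among 5 tested members. The other 3 had log2 changes above 0, and the family's median was 0.0004. Slc13a had 2 tested members and sums of 6.18 and 5.44 TPM with vehicle against 3.90 and 2.86 TPM with TGFbeta. It lay between 0.719 and 0.749 for Slc5a, Slc16a, Slc22a and Slco. Slc2a had 72.1 and 80.3 TPM with vehicle and 87.7 and 77.4 TPM with TGFbeta, so its groups overlapped.

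**Figure D2:**
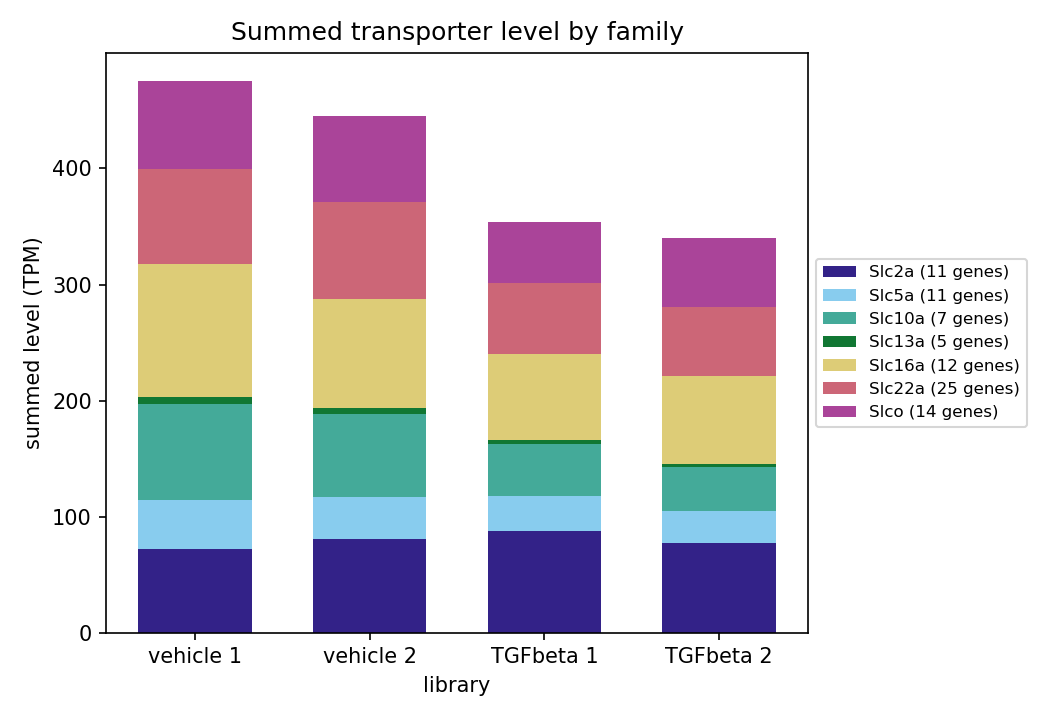
Summed TPM of all members of each family (coloured segments, number of genes in the key) in the 4 libraries. The bars reach 476 and 445 TPM with vehicle and 354 and 340 TPM with TGFbeta, and the Slc2a segment at the base, 72.1 and 80.3 against 87.7 and 77.4 TPM, overlaps between treatments.

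Slc10a6 encodes a sodium-coupled carrier of sulfated steroids (ENSMUSG00000029321.1, GRCm38 chromosome 5, 103605711 to 103629403, minus strand). Vehicle levels were 17.6 and 16.8 TPM (17.2 ± 0.55, SD, n = 2), and TGFbeta levels were 0.538 and 0.669 TPM (0.604 ± 0.0924). Both vehicle libraries were high, both TGFbeta libraries were close to 0, and the groups lay far apart. The ratio of means was 28.5-fold lower with TGFbeta, and the log2 change of -3.51 (SE 0.19, limma adjusted p = 0.00312) ranked 5 among the 15815 tested genes from the largest fall. Its transcript shares 0% of its 31-base words with transcripts of other genes in GENCODE M21, and no exon of another gene overlaps it. The call ended when vehicle 1 or vehicle 2 was left out, with log2 changes of -3.47 and -3.54. Testing every gene above 0 ended it too (limma adjusted p = 0.0590). Each of these 3 changes ended every call of the whole table, not that of Slc10a6 alone. The call held when TGFbeta 1 or TGFbeta 2 was left out (log2 change -3.45 and -3.56).

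Slc10a7 encodes a relative in the same family that is known for a role in calcium entry and in skeletal matrix rather than bile acid uptake (ENSMUSG00000031684.11, chromosome 8, 78509346 to 78734003, plus strand). It had 40.1 and 33.0 TPM with vehicle (36.6 ± 5.03, SD, n = 2) and 17.6 and 11.9 TPM with TGFbeta (14.8 ± 4.03). Every TGFbeta value was below every vehicle value, with a spread of several TPM in each group. Its mean was 2.48-fold lower and its log2 change -1.27 (SE 0.22, limma adjusted p = 0.0333). Its call ended when any 1 library was left out, with log2 changes of -1.13 and -1.41 (vehicle 1 and 2) and -1.53 and -1.01 (TGFbeta 1 and 2). The same held with every gene above 0 (limma adjusted p = 0.113) and with no intensity trend (0.0523). Leaving out either vehicle library, or testing every gene above 0, ended every call of the whole table. The other 3 tested family members did not pass. Slc10a3 went from 15.8 to 17.9 TPM on average (log2 change 0.17, limma adjusted p = 0.566). However, 11% of its 31-base words are shared, most often with the overlapping gene Ubl4a. The bile acid carrier genes of liver and ileum, Slc10a1 and Slc10a2, stayed between 2.68 and 4.78 TPM in all libraries with overlapping groups.

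Slc22a23, an orphan relative of the organic cation and anion carriers, was the member that rose (ENSMUSG00000038267.15, chromosome 13, 34179158 to 34345182, minus strand). Its levels were 1.48 and 2.29 TPM with vehicle (1.89 ± 0.574, SD, n = 2) and 6.20 and 5.04 TPM with TGFbeta (5.62 ± 0.819). Both TGFbeta libraries were above both vehicle libraries. The mean was 2.98-fold higher and the log2 change 1.21 (SE 0.24, limma adjusted p = 0.0436). Leaving out any 1 library ended the call (log2 change from 1.00 to 1.41). Testing every gene above 0 (limma adjusted p = 0.125) or blocking on the replicate number (0.0633) did so too. With either vehicle library left out, or every gene above 0 tested, no call of the whole table remained. At a mean of 3.75 TPM, Slc22a23 was not tested under the filter of 5 TPM.

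The 300 bases around the start site of each called gene, 250 before and 50 after, are shown because these 3 members are the ones that passed. They are RefSeq promoter entries of GRCm38.p6, printed on the gene's strand, with capitals for CAGAC (the core of SMAD-type sites), TGANTCA (AP-1), GGGCGG (GC box) and TATAAA, searched on both strands. The windows are chr5:103629354-103629653 (minus) for Slc10a6, chr8:78509078-78509377 (plus) for Slc10a7 and chr13:34345169-34345468 (minus) for Slc22a23.
Slc10a6: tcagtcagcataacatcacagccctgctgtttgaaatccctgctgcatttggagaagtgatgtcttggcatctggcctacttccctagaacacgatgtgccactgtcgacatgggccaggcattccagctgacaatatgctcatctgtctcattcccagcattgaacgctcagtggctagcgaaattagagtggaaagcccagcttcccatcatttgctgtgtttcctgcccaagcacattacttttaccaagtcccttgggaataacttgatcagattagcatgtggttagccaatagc
Slc10a7: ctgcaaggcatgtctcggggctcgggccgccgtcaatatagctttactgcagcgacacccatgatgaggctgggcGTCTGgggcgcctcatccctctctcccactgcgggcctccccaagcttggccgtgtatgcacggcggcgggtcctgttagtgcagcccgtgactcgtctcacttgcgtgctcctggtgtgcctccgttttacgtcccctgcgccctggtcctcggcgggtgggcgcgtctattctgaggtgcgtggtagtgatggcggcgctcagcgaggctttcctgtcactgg
Slc22a23: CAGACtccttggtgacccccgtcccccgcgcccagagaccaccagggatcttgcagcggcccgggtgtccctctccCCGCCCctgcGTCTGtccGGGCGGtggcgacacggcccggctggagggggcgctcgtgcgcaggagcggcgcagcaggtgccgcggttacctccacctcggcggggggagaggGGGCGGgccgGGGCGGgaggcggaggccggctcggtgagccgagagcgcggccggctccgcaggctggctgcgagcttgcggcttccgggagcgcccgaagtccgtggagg
Slc10a6 held none of these motifs and had 48% G and C. Slc10a7 had 65% G and C and 1 CAGAC match, on the reverse strand at -175 from the start site. Slc22a23 had 77.3% G and C, 2 CAGAC matches at -250 and -164, and 4 GGGCGG matches at -174, -156, -61 and -51, of which those at -164 and -174 were on the reverse strand. Among 32851 promoter windows of the same length, 49.6% held CAGAC, 7.81% TGANTCA, 35.7% GGGCGG and 13.6% TATAAA. Among the 31 windows of 27 tested members the shares were 51.6%, 9.68%, 41.9% and 9.68%. Median G and C content of all windows was 52.7%.

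HuR, named in the study, is known to bind U-rich and AU-rich stretches, often in 3' untranslated regions, so the first AUUUA of each called gene is shown within 30 bases of GENCODE M21 transcript, written as DNA with ATTTA in capitals.
Slc10a6: tgtaggactgtaATTTAttgaaggcatctt
Slc10a7: acatctgagaagATTTAtgaatcatttgac
Slc22a23: ttcaatgtttgtATTTAttttggtcatttt
These begin at base 572, 944 and 243 of the region for Slc10a6, Slc10a7 and Slc22a23, counted from the base after the stop codon to the A of the pentamer. The regions hold 2, 5 and 3 copies. At least 1 copy was found in 24 of 39 tested members with a usable region (61.5%) and in 65.9% of 13230 tested protein-coding genes. The density had a median of 1.1 per kb in members and 1.22 per kb in all genes. Slc16a7 (29 copies), Slc5a3 (24) and Slc16a10 (15) held the most among members. None of the 3 passed the test, and a match is a description of letters, not a binding site.

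**Figure D3:**
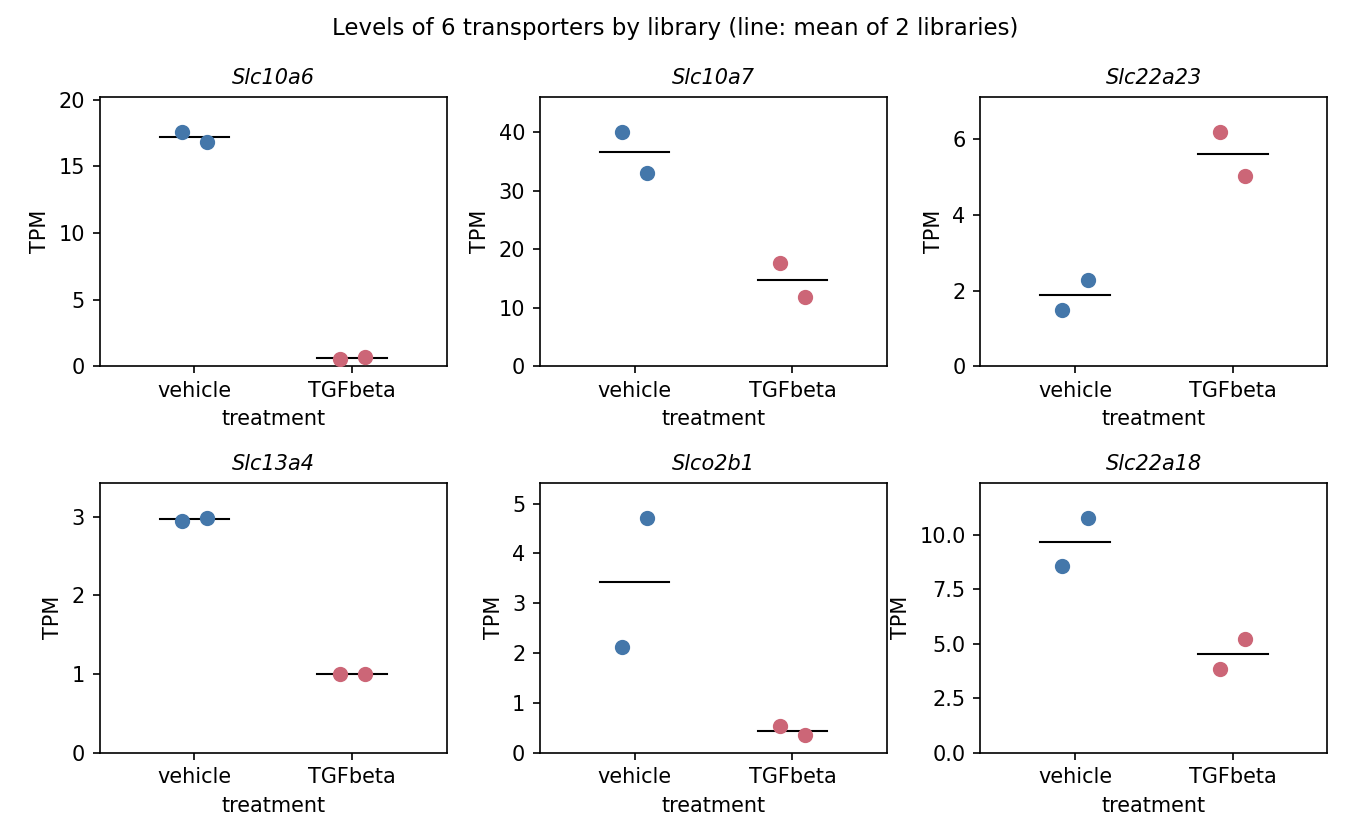
TPM in each library for the 3 called transporters, and for Slc13a4, Slco2b1 and Slc22a18, which missed the threshold by little; points are libraries and lines the mean of 2. TGFbeta values lie below vehicle values in every panel except Slc22a23.

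Slc13a4 and Slco2b1 lay just outside the threshold. Slc13a4, a sodium-coupled sulfate carrier known from placenta, had 2.95 and 2.98 TPM with vehicle and 0.997 and 0.993 TPM with TGFbeta. Replicates were nearly equal and the groups well apart. Its mean was 2.98-fold lower and its log2 change -0.99 (SE 0.21, limma adjusted p = 0.0502). The limma adjusted p was under 0.05 in 4 of the 13 alternatives that kept this gene. These were a pseudocount of 5 (0.0474), no intensity trend (0.0369), the robust fit (0.0358) and protein-coding genes alone (0.0123). It did not pass after quantile normalization (limma adjusted p = 0.0844), median scaling (0.0879) or with the replicate block (0.0902). Slc13a1, another sulfate carrier, known from kidney, had 2.65 and 2.34 TPM with vehicle and 2.32 and 1.78 TPM with TGFbeta (log2 change -0.20, limma adjusted p = 0.626).

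Slco2b1 encodes an uptake carrier of steroid sulfates and drugs. Its levels were 2.12 and 4.71 TPM with vehicle and 0.528 and 0.348 TPM with TGFbeta. The vehicle libraries differed from each other more than the TGFbeta libraries did, but the groups did not overlap. The mean was 7.80-fold lower, with a log2 change of -1.56 (SE 0.33, limma adjusted p = 0.0517). It passed in 3 of the 13 alternatives that kept it: a pseudocount of 0.1 (0.0486), the robust fit (0.0313) and protein-coding genes alone (0.00982). It did not pass with a pseudocount of 5 (limma adjusted p = 0.0717) or after quantile normalization (0.0816). The 3 other tested Slco members were more abundant. Slco3a1, a carrier of prostaglandins and thyroxine, had 30.3 and 25.6 TPM with vehicle and 19.6 and 20.4 TPM with TGFbeta (limma adjusted p = 0.142). Slco2a1, the prostaglandin transporter, had 13.5 and 14.7 against 10.2 and 11.8 TPM (limma adjusted p = 0.291). Slco1a6 had 24.4 and 24.5 against 19.0 and 23.99 TPM (limma adjusted p = 0.554). Its level is uncertain, because 13.5% of its 31-base words are shared, most often with Slco1a5. All 4 lay lower in both TGFbeta libraries, as did 39.8% of all tested genes, and for Slco1a6 the gap was only 24.4 against 23.99 TPM. Of the 4, 0 passed limma and 2 had an unadjusted p under 0.05, against 24.5% of all tested genes.

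Among Slc22a members, 8 of 25 were tested and Slc22a23 alone passed. Slc22a17, a receptor for the iron-carrying protein lipocalin 2, was the most abundant, with 26.5 and 33.9 TPM under vehicle and 18.7 and 15.9 TPM under TGFbeta (log2 change -0.77, SE 0.18, limma adjusted p = 0.0659). Slc22a18, an imprinted gene, had 8.57 and 10.8 TPM against 3.83 and 5.21 TPM (log2 change -0.96, limma adjusted p = 0.0608). These groups did not overlap. With only protein-coding genes tested, limma's adjusted p was 0.0286 for Slc22a17 and 0.0210 for Slc22a18. Both also passed under the filter of 5 TPM (0.0327 and 0.0371), and Slc22a18 also in the robust fit (0.0438). Of 14 alternatives, Slc22a17 thus passed in 2 and Slc22a18 in 3. After quantile normalization neither passed (limma adjusted p = 0.144 and 0.115). Of all tested genes, 12.5% were called with protein-coding genes alone and 12% under the filter of 5 TPM, against 5.92%.

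Slc22a5, which encodes the carnitine carrier OCTN2, had 15.6 and 11.2 TPM with vehicle and 7.29 and 8.48 TPM with TGFbeta (log2 change -0.68, SE 0.21, limma adjusted p = 0.117). Its neighbour and close copy Slc22a21 had 8.82 and 6.84 against 6.55 and 6.03 TPM (limma adjusted p = 0.459). Of their 31-base words, 37.8% and 30.8% are shared, most often with each other, so the split between them is uncertain. Slc22a14 was at 1.70 and 2.40 TPM with vehicle and at 0.152 and 1.02 TPM with TGFbeta, where the replicates differed widely (log2 change -0.99, limma adjusted p = 0.140). Slc22a15, a carrier of zwitterions, had 14.7 and 12.1 against 13.8 and 13.03 TPM, with overlapping groups and a log2 change of 0.01 (SE 0.17, limma adjusted p = 0.986). Slc22a19, an organic anion carrier gene, ranged from 1.04 to 1.55 TPM and its groups overlapped too.

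None of the 9 tested Slc16a members passed (limma, 0 called). At an unadjusted p under 0.05 there were 3, against 24.5% of all tested genes. Slc16a10, a carrier of aromatic amino acids, had 19.4 and 17.7 TPM against 14.0 and 13.3 TPM (log2 change -0.42, limma adjusted p = 0.171).

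The lactate and pyruvate carrier gene Slc16a7 (MCT2) had 5.69 and 2.97 TPM with vehicle and 2.35 and 2.67 TPM with TGFbeta, so vehicle 1 stood apart (log2 change -0.55, limma adjusted p = 0.306). Slc16a9 had 3.35 and 3.48 against 1.78 and 2.18 TPM (log2 change -0.57, limma adjusted p = 0.163). Slc16a4 had 10.2 and 6.29 against 6.17 and 7.31 TPM, with overlapping groups (log2 change -0.23, limma adjusted p = 0.634). Slc16a5, Slc16a6, Slc16a11 and Slc16a13 stayed between 0.529 and 3.78 TPM with overlapping groups. The relatives left out by the rule did not pass either. Slc16a1 (MCT1) had 6.85 and 4.99 against 5.83 and 6.65 TPM (limma adjusted p = 0.866). Slc16a3 (MCT4), which exports lactate, had 22.2 and 34.2 against 50.9 and 34.5 TPM (limma adjusted p = 0.245).

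None of the 7 tested Slc2a members passed (limma, 0 called), and 2 had an unadjusted p under 0.05, against 24.5% of all tested genes. The 3 most abundant are all known from intracellular membranes or as carriers of dehydroascorbate rather than as main glucose carriers. Slc2a6, a lysosomal member, had 19.9 and 24.8 TPM with vehicle and 35.0 and 28.4 TPM with TGFbeta (log2 change 0.49, SE 0.18, limma adjusted p = 0.173). Slc2a10, whose loss causes arterial tortuosity in humans, had 17.6 and 19.8 against 23.9 and 21.3 TPM (log2 change 0.26, limma adjusted p = 0.361). Slc2a8 went the other way, with 20.8 and 19.3 against 16.2 and 12.3 TPM (log2 change -0.47, limma adjusted p = 0.185). In each of the 3 the groups did not overlap. Among all tested genes, 39.8% lay lower and 15.5% higher in both TGFbeta libraries. Slc2a13, which carries inositol with protons, had 0.959 and 1.24 against 1.32 and 2.08 TPM (log2 change 0.35, limma adjusted p = 0.445). The general glucose carrier gene Slc2a1, left out by the rule, had 42.2 and 41.9 against 53.7 and 51.8 TPM (limma adjusted p = 0.197). The insulin-responsive carrier gene Slc2a4 stayed between 0.967 and 1.78 TPM and the neuronal type Slc2a3 between 2.56 and 2.83 TPM, each with overlapping groups. The groups also overlapped for the urate carrier gene Slc2a9, at 7.39 and 10.6 against 6.36 and 8.27 TPM.

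Of 5 tested Slc5a members none passed (limma, 0 called), and 1 had an unadjusted p under 0.05, against 24.5% of all tested genes. Slc5a3, a sodium-coupled inositol carrier that responds to osmotic stress, held 72.3% of the family's summed level with vehicle. Its levels were 30.7 and 25.9 TPM with vehicle and 19.0 and 19.6 TPM with TGFbeta (log2 change -0.53, SE 0.16, limma adjusted p = 0.107). The groups did not overlap. Its exons overlap those of Mrps6, the gene in which the 1.24% of its 31-base words found elsewhere occur most often. Slc5a11, a further inositol carrier, had 2.12 and 1.23 against 0.969 and 0.521 TPM (log2 change -0.61, limma adjusted p = 0.248). The vitamin carrier gene Slc5a6 had 6.14 and 4.63 against 5.34 and 3.69 TPM (log2 change -0.22, limma adjusted p = 0.633). Of its words, 22.9% are shared, most often with Gm6157. The lactate carrier gene Slc5a12 had 0.941 and 1.19 against 1.62 and 1.40 TPM (log2 change 0.28, limma adjusted p = 0.498). Slc5a2, which encodes the renal glucose carrier SGLT2, had 1.48 and 1.98 against 1.78 and 0.965 TPM (log2 change -0.22, limma adjusted p = 0.670).

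**Figure D4:**
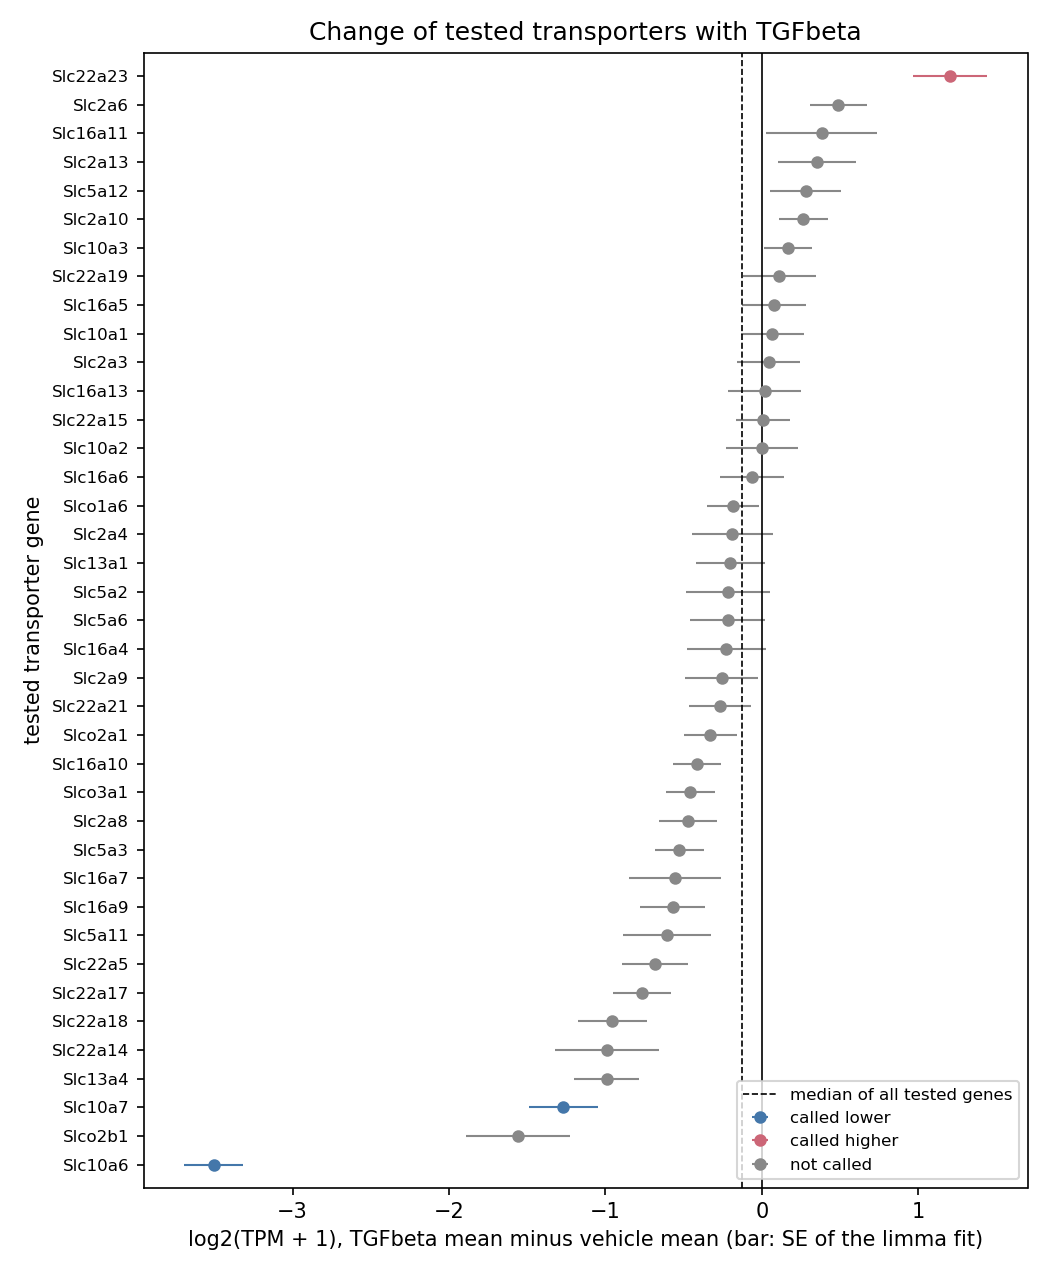
Log2 change of 39 tested transporters, TGFbeta mean minus vehicle mean of log2(TPM + 1), with bars of 1 SE from the limma fit; blue is called lower, red called higher, grey not called, and the dashed line is the median of all tested genes at -0.13. Slc10a6 at -3.51 stands apart at the bottom and Slc22a23 at 1.21 at the top.

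The 45 members under a mean of 1 TPM include the classical kidney and liver carriers. Slc22a6 (OAT1), Slc22a16, Slc22a20, Slc22a27, Slc22a28, Slc22a29, Slc2a7, the choline carrier gene Slc5a7 and Slco4c1 were listed at 0 in all libraries. A further 12 reached 0.5 TPM in at least 1 library: Slc13a3, Slc16a8, Slc22a12, Slc22a13, Slc22a4, Slc2a12, Slc5a10, Slco1b2, Slco1c1, Slco4a1, Slco5a1 and Slco6c1. The highest was the liver carrier gene Slco1b2, with 1.51 and 1.501 TPM under vehicle and 0.438 and 0.205 TPM under TGFbeta. Slco1c1, a thyroxine carrier gene, had 1.39 and 0.836 against 0.385 and 0.820 TPM. These values were not tested.

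Other genes that use or regulate the carried molecules were taken from 9 lists with 83 tested entries. Of these 3 rose, 8 fell and 72 did not pass, while of all tested genes 1.54% were called higher and 4.38% lower. The lists were written with earlier results of these data known, so the counts only describe the listed genes. Of 9 tested prostaglandin genes 1 rose and 2 fell. Ptgs2, the inducible cyclooxygenase, went from 3.36 and 2.31 to 15.5 and 15.8 TPM (log2 change 2.13, limma adjusted p = 0.00947). Hpgd, which inactivates prostaglandins after uptake, went from 17.5 and 16.03 to 6.48 and 7.92 TPM (log2 change -1.12, limma adjusted p = 0.0269), and the reductase gene Ptgr1 fell by 0.99 on the log2 scale (limma adjusted p = 0.0354). Of 9 genes of inositol, osmolyte and creatine supply 1 rose and 1 fell. Isyna1, which makes inositol, fell from 72.3 and 77.3 to 25.4 and 23.0 TPM (log2 change -1.59, limma adjusted p = 0.00734). Ckb, brain-type creatine kinase, rose from 128 and 136 to 565 and 444 TPM (log2 change 1.92, limma adjusted p = 0.00653).

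Of 13 tested genes of glucose handling 1 fell, Sord, which makes fructose from sorbitol (log2 change -1.47, limma adjusted p = 0.0107), and 0 rose. Of 5 thyroid hormone genes the receptor gene Thra fell (log2 change -1.01, limma adjusted p = 0.0236) and 0 rose. Of 12 genes of carnitine and choline use the choline carrier gene Slc44a1 fell (log2 change -0.70, limma adjusted p = 0.0499). Of 12 efflux pumps and other drug transporters Abcc5 fell (log2 change -0.68, limma adjusted p = 0.0400), and of 7 scaffolds and regulators the bile acid receptor gene Nr1h4 fell (log2 change -1.41, limma adjusted p = 0.0228). Papss2, which activates sulfate, rose (log2 change 0.76, limma adjusted p = 0.0380) among 9 genes of citrate and sulfate use. The list for monocarboxylate transport held the left-out relatives Slc16a1 and Slc16a3 with Bsg, Emb, Nptn, Ldha and Ldhb. None of these 7 passed (limma, 0 called), and 1 had an unadjusted p under 0.05, against 24.5% of all tested genes. No gene of the whole table was called without vehicle 1 or without vehicle 2, so each of these calls also rests on both vehicle libraries.

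The labelled cell type matched its markers: all 7 fibroblast markers were tested, with Col1a1 at 2392 TPM or more. Of these Postn rose, and Pdgfra and Tcf21 fell. Of 7 other cell types, with 7 markers each, 5 had a lower summed marker level in both TGFbeta libraries. Among all tested genes, taken singly, 39.8% lay lower in both and 64.8% had a log2 change below 0. Each sum mainly follows its most abundant markers. The sum for endothelial cells, in which Slco2a1 and Slco1c1 are also known, was 55.4 and 59.3 TPM with vehicle and 47.5 and 42.2 TPM with TGFbeta. Egfl7, at 34.0 and 34.3 against 22.5 and 17.0 TPM, had the highest level of these markers and did not pass, while Erg, the endothelial marker that passed, rose (limma adjusted p = 0.0163). The sum for macrophages and leukocytes, where Slco2b1 and Slc2a6 are also known, was 73.6 and 92.5 against 60.8 and 65.01 TPM. Lyz2, at 55.2 and 66.4 against 42.9 and 48.1 TPM, had the highest level of these markers and did not pass. Cd68 was also lower in both TGFbeta libraries and did not pass, while the groups overlapped for Ptprc, Csf1r, Adgre1, C1qa and Fcgr1. The sum for pericytes and smooth muscle was 109 and 116 against 80.4 and 82.7 TPM. There Notch3 fell from 74.0 and 83.9 to 21.1 and 17.4 TPM, and Mcam rose from 15.2 and 13.6 to 29.3 and 29.4 TPM. Cspg4 was at 12.4 and 10.7 against 22.5 and 16.7 TPM and did not pass. Myh11, at 4.52 and 3.92 against 4.62 and 4.92 TPM, did not pass either. Rgs5 was at 2.26 and 2.47 against 1.95 and 13.5 TPM, with overlapping groups. Besides Notch3, only Kcnj8 and Abcc9 of these markers were lower in both TGFbeta libraries, and they stayed under 1 TPM. Sums were 67.1 and 103 against 46.4 and 49.8 TPM for cardiomyocytes, and 14.4 and 17.1 against 12.1 and 12.5 TPM for epicardial cells. Tnnt2, at 47.0 and 81.4 against 35.2 and 34.6 TPM, had the highest level of the cardiomyocyte markers and did not pass. The cardiomyocyte genes Myh6 and Actc1 stayed under 1 TPM in all libraries, as did 4 of 7 epicardial markers and the leukocyte gene Fcgr1. Adipocyte sums overlapped between groups, with Adipoq, Cidec, Lep and Cfd under 1 TPM, and Schwann cell sums were 38.7 and 33.8 against 43.5 and 63.6 TPM. The part of these cells in the transporter values was not tested.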

How the data were processed

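RNA levels in 4 libraries of cultured mouse cardiac fibroblasts, 2 vehicle and 2 TGFbeta as titled in the labels, were used as deposited. Per the file headers the values are TPM, computed by the authors for each of 33641 gene symbols; not given in the sources used here: aligner, quantifier, genome build. Each library summed to 1000000 TPM, so read depth and counting error are unknown. Genes with a mean of at least 1 TPM over all libraries were compared as log2(TPM + 1) with limma 3.58.1 in R 4.3.3 (lmFit, eBayes with an intensity trend, two-sided, treatment as the only term), with Benjamini-Hochberg adjustment over all 15815 tested genes and a threshold of 0.05. Exact permutation over 6 arrangements cannot go below a p of 0.333 for 1 gene and was left aside. Mean and fold values are of TPM. All 85 members, and 32159 of all symbols, matched GENCODE M21 (GRCm38) by symbol; RefSeq promoter entries (GRCm38.p6) were found for 67 members. Words of 31 bases were compared with all other transcripts to find genes that may share reads. The fit was tested on simulated data.

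Members and lists were chosen with earlier results of these data known. Named genes were every called member, the 3 most abundant and the 3 most changed tested members of each family, the 3 left-out relatives, called genes of the pathway lists, and untested members reaching 0.5 TPM, less 1 tested gene that is not reported here; a few others, named by range, were picked with their values in view. The 14 alternatives changed the pseudocount, the filter, the scaling, the variance model, the replicate block or the libraries used; protein-coding genes alone was chosen after seeing the data.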

Additional observations from a re-analysis of the deposited data

How the results depend on the processing

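Over the 14 alternatives limma called 0 to 8 of the tested transporters, against 3. With every gene above 0 it called 0 members and 0 of all genes (17 members and 4348 genes at an unadjusted p under 0.05). With a mean TPM of at least 5 it called 5 of 19 members and 12% of all genes, in the robust fit 6 of 40 and 7.78%, and with protein-coding genes only 8 of 40 and 12.5% (1712 genes). Without an intensity trend all calls were 602, with 3 members. Leaving out 1 library gave 0 to 1 member and 0 to 203 genes of all: 0 without vehicle 1 (9 members and 3033 genes at an unadjusted p under 0.05), 0 without vehicle 2 (14 and 2407), and Slc10a6 alone without TGFbeta 1 (171 genes) or TGFbeta 2 (203 genes). In these fits the remaining single library is taken to vary as much as the other group. The split of all calls moved from 244 higher and 692 lower to 421 and 401 after median scaling and 333 and 401 after quantile normalization.

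With the replicate number as a block, 2 members (Slc10a6 and Slc10a7) and 631 genes were called, and Slc22a23 was not. The labels give no pairing beyond the number, and differences between replicates 1 and 2 had a Pearson r of -0.0539 across genes between treatments. Log2 changes near 0 turned sign for some members. With 1 library left out Slc16a4 ran from -0.54 to 0.082 (without vehicle 1), Slc22a15 from -0.12 (without vehicle 2; -0.03 without TGFbeta 1) to 0.14 (0.16 after median scaling), Slc5a2 from -0.47 to 0.033 and Slc5a6 from -0.44 to 0.000398 (both without TGFbeta 2). Over all alternatives Slc10a6 ran from -4.63 to -1.99 and Slc10a7 from -1.53 to -1.01. Slc22a23 ran from 0.63 to 1.55 over the 13 alternatives that kept it.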
